A study of Mus musculus with 10 samples.

Results

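Transcripts of 10 genes were followed in tumor-infiltrating Pmel CD8+ T cells: the S100 genes S100a4, S100a6, S100a10, S100a11 and S100a13, the galectin genes Lgals1 and Lgals3, the annexin genes Anxa1 and Anxa2, and Vim. They were chosen by name out of 34932 genes in the annotated tables, with earlier results of these data known. They encode small calcium-binding, lipid-binding or sugar-binding proteins and a filament protein associated with effector T cells. All 10 passed the filter on low counts that left 11781 genes for testing. The comparison asks how these genes differ between T cells given a retrovirus with the reading frame of the AP-1 family factor BATF (MIT-BATF) and T cells given the same vector without it (MIT-Empty).

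Splenocytes of Pmel Thy1.2/Thy1.2 mice, whose CD8+ T cells carry a transgenic receptor against the gp100 antigen of melanoma, were the source of both groups. What the groups share is therefore 24 h of gp100 peptide before transduction, the vector backbone (MSCV-IRES-Thy1.1, MIT), and cytokines in culture. The dose of IL-2 went from 10 to 50 IU/mL between these stages, and IL-15 and IL-7 were present at 10 ng/mL in the later one. The groups differ in whether the vector holds mouse BATF. The same number of Thy1.1+ cells was transferred into each Ly5.1 mouse with a B16-F10 melanoma, and mice were 8 to 12 weeks old. On day 7 after transfer, 2000 live Thy1.1+ cells were sorted from the tumor of each mouse and made into a SMART-Seq2 library, a full-length cDNA protocol for small inputs, giving 5 libraries under each label. The vector rather than the Batf locus drives the added BATF, and the sorted cells are those that took up either vector.

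Most S100 proteins are small calcium sensors with paired EF-hands that act by binding other proteins, and annexins bind acidic phospholipids of membranes when calcium rises. S100A10 and annexin A2 form a heterotetramer at the plasma membrane, S100A11 binds annexin A1, and S100A4 binds non-muscle myosin. Galectins bind beta-galactosides on glycoproteins inside and outside the cell, and vimentin builds the intermediate filaments of lymphocytes. Several of these genes are known as markers of T cells that have met antigen, with low transcript levels in naive cells.

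The 5 S100 genes lie on chromosome 3 of GRCm38 (mm10), all on the plus strand. S100a13 spans 90514435 to 90524581, S100a4 spans 90603771 to 90606045 and S100a6 spans 90612882 to 90624181, with 79.2 kb between the first pair and 6.8 kb between S100a4 and S100a6. S100a11 (93520488 to 93526287) and S100a10 (93555080 to 93564643) lie 2896.3 kb further along, 28.8 kb apart from each other. Lgals3 is on chromosome 14 from 47367751 to 47386160, Lgals1 on chromosome 15 from 78926725 to 78930465, Anxa2 on chromosome 9 from 69453620 to 69491795 and Vim on chromosome 2 from 13573927 to 13582826, all on the plus strand, and Anxa1 on chromosome 19 from 20373428 to 20390944 on the minus strand. Reads of S100a11 or Lgals1 could be shared with their processed copies, and the 1 annotated copy of S100a11 and the 2 of Lgals1 had no counts.

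Because BATF binds DNA with AP-1 partners, the promoters of these genes were searched for the AP-1 letters TGANTCA and for 3 general letters, TGACGTCA, GGGCGG and TATAAA, on both strands. RefSeq promoter windows (GRCm38.p6, from 250 bases before to 50 bases after the start site) were at hand for 8 of the 10 genes. TGANTCA was found in 2 of these 8, S100a11 and Anxa2, and in 7.81% of 32851 windows of all genes. TATAAA was found in 4 of them (Anxa1, Anxa2, S100a4 and Vim; 13.6% of all windows), GGGCGG in 3 (Anxa2, Lgals3 and S100a11; 35.7%) and TGACGTCA in 0 (1.79%). No match overlapped another. Stretches upstream of 4 start sites are printed 5′ to 3′ on the plus strand, with capitals for TGANTCA and TATAAA. That of Lgals3 lies inside the annotated gene span, and it ends short of the RefSeq start site, before an annotated Lgals3 exon. S100a6 and Lgals3 are shown as the genes that rose, S100a4 as the gene of the set nearest to S100a6, and S100a11 for its AP-1 letters.
S100a6, chr3:90612774-90612893: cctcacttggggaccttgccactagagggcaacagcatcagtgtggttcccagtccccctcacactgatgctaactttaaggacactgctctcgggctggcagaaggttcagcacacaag
S100a4, chr3:90603650-90603769: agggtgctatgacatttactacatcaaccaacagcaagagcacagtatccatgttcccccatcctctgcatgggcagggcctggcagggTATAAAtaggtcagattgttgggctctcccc
S100a11, chr3:93520346-93520495: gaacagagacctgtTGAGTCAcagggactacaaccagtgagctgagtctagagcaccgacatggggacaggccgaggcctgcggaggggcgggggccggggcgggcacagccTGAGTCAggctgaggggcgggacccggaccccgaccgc
Lgals3, chr14:47373693-47373812: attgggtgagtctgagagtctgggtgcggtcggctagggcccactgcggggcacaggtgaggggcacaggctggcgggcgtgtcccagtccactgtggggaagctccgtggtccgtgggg
The AP-1 letters of S100a11 begin 136 and 38 bases before its start site, and the TATAAA of S100a4 begins 31 bases before its own. A match is a run of letters and was not tested as a binding site.

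Totals ran from 10702740 to 34102086 counts in the libraries labelled MIT-BATF and from 6534472 to 21355657 in those labelled MIT-Empty. Batf itself was at 21.9 ± 5.54 CPM (counts scaled to the TMM-adjusted library total; SD, n = 5) under the label MIT-BATF and at 29.2 ± 14.8 CPM (SD, n = 5) under MIT-Empty, so the Batf counts do not separate the labels. The sources used here do not say whether reads of the vector were counted as Batf. Gene by gene, the counts of replicates 4 and 5 lay within those of replicates 2 and 3 in both groups, with the contained library above the other in 0.286% to 0.661% of genes against at least 3.54% for other pairs. Differences of the 10 genes, and calls of other genes, are therefore given over the deposited counts and again with shared reads counted once, where each contained library was taken off the one that holds it. If nested counts are the same reads, p-values and errors over the deposited counts are too small. Mitochondrially encoded genes took 33.2% of the counts in replicate 1 labelled MIT-BATF and 11.5% to 23.1% in the other 9 libraries.

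Of the 10 genes, S100a6 and Lgals3 rose in the libraries labelled MIT-BATF, by 1.19 each on the log2 scale, and no gene of the set fell. The other 8 did not pass, with S100a11, Vim and S100a4 at differences of 0.64, 0.56 and 0.54, and Anxa2 and Lgals1 at -0.33 and -0.12. The test was the quasi-likelihood test of edgeR, adjusted by Benjamini-Hochberg over 11781 genes, by which 2.16% of all genes tested were called higher and 2.43% lower. The median difference over the 10 genes was 0.38, against 0.01 over all genes tested. The 10 genes were chosen with earlier results of these data known, so this contrast is not independent evidence. With shared reads counted once only Lgals3 of the 10 passed, where 0.575% of 11129 genes were called higher and 1.26% in either direction, and the median over the 10 genes was 0.34. In sorted bulk samples, a change in the share of cells that make a transcript and a change in transcript per cell cannot be told apart.

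**Figure D1:**
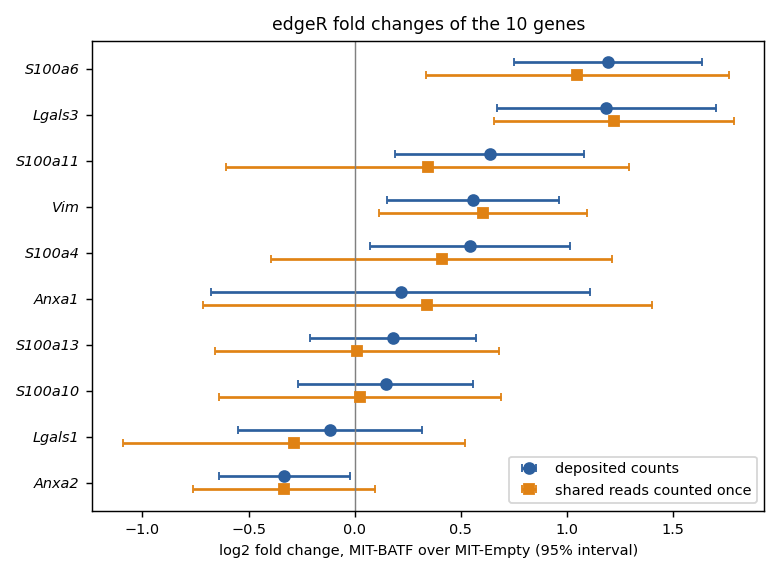
Differences of the 10 genes on the log2 scale, libraries labelled MIT-BATF over MIT-Empty, with 95% intervals from edgeR, for the deposited counts (circles) and with shared reads counted once (squares). S100a6 and Lgals3 stand at 1.19 in the deposited counts and at 1.05 and 1.22 with shared reads counted once, where the interval of S100a6 widens.

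S100a6, which encodes calcyclin, a calcium sensor that binds annexins and cytoskeletal proteins, was at 1552, 1646, 1455, 2438 and 2423 CPM in replicates 1 to 5 labelled MIT-BATF. In replicates 1 to 5 labelled MIT-Empty it was at 579, 744, 891, 958 and 987 CPM. The groups did not overlap, as in 3.28% of all genes tested, which did not overlap in this direction. Replicates 4 and 5 labelled MIT-BATF were the highest of the 10 libraries. The log2 difference was 1.19 (standard error 0.21, 95% interval 0.75 to 1.64), with an adjusted p of 0.0040 from edgeR. With shared reads counted once the difference was 1.05 (0.33 to 1.76) and the adjusted p was 0.190. Replicate 3 labelled MIT-BATF then stood at 775 CPM, below replicates 3, 4 and 5 labelled MIT-Empty at 852, 1035 and 1062 CPM. Without that library the shared-once difference was 1.24 with an adjusted p of 0.0393, and in the other 9 fits that left out 1 library it did not pass. DESeq2 on those counts gave an adjusted p of 0.0276, with 1.32% of all genes called higher.

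S100a4, whose protein binds non-muscle myosin and is linked to cell movement, was at 3380, 1739, 1607, 2531 and 2825 CPM under the label MIT-BATF. Under MIT-Empty it was at 1263, 1437, 1817, 1762 and 2021 CPM. The groups overlapped, with replicates 2 and 3 labelled MIT-BATF inside the MIT-Empty range and replicate 1 the highest of all 10. The difference of 0.54 (standard error 0.22, interval 0.07 to 1.01) had an adjusted p of 0.203 from edgeR, and with shared reads counted once it was 0.41 (-0.39 to 1.21) with an adjusted p of 0.817.

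S100a4 and S100a6, 6.8 kb apart on chromosome 3, did not keep 1 ratio. Per transcript length, in TPM, S100a6 stood at 0.921, 0.874, 0.934 and 0.823 of S100a4 in replicates 2 to 5 labelled MIT-BATF, and at 0.431 to 0.527 in the 5 libraries labelled MIT-Empty. Replicate 1 labelled MIT-BATF had a ratio of 0.441, within the MIT-Empty range, and it is the library with 33.2% mitochondrial counts. The part of the mitochondrial share in this ratio was not tested. In CPM with shared reads counted once the ratios were 0.921, 1.05, 0.963 and 0.858 in replicates 2 to 5 labelled MIT-BATF, 0.459 in replicate 1, and 0.458 to 0.543 under MIT-Empty. Without this replicate the log2 difference of S100a6 was 1.27 (adjusted p = 0.00329 from edgeR), and without mitochondrially encoded genes in the counts it was 1.20 (adjusted p = 0.00353).

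S100a11, whose protein binds annexin A1 and takes part in membrane repair, was at 1553, 1248, 1150, 2113 and 2305 CPM under MIT-BATF and at 1214, 1277, 909, 927 and 1062 CPM under MIT-Empty. The groups overlapped through replicates 2 and 3 labelled MIT-BATF. The difference of 0.64 (standard error 0.21, interval 0.19 to 1.08) did not pass in edgeR (adjusted p = 0.110) and passed in DESeq2 (adjusted p = 0.0287), which called 3.7% of all genes tested higher. With shared reads counted once the difference was 0.34 (interval -0.61 to 1.29), with replicate 3 labelled MIT-BATF at 299 CPM and replicate 2 at 690 CPM, and neither tool called it (adjusted p = 0.886 in edgeR and 0.933 in DESeq2).

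S100a10, the light chain of the annexin A2 heterotetramer, was at 1288, 1311, 1278, 1757 and 2109 CPM under MIT-BATF and at 1091, 1319, 1468, 1297 and 1821 CPM under MIT-Empty. Its difference was 0.15 (interval -0.27 to 0.56, adjusted p = 0.759 from edgeR), and 0.02 (-0.64 to 0.69) with shared reads counted once. S100a13, whose protein takes part in release of growth factors that lack a signal peptide, was at 153, 179, 165, 247 and 297 CPM and at 164, 182, 177, 180 and 216 CPM in the same order. Its difference was 0.18 (interval -0.21 to 0.57, adjusted p = 0.675), and 0.01 (-0.66 to 0.68) with shared reads counted once. Both genes were highest in replicate 5 labelled MIT-BATF, and the groups overlapped in both.

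Lgals3, which encodes galectin-3, a chimera-type galectin that binds glycans of the T cell receptor complex and CD45, was at 170, 225, 278, 247 and 270 CPM in replicates 1 to 5 labelled MIT-BATF. Under the label MIT-Empty it was at 73.8, 112, 85.3, 181 and 71.7 CPM. Replicate 4 labelled MIT-Empty, at 181 CPM, lay above replicate 1 labelled MIT-BATF, and the other 4 MIT-Empty libraries lay below all MIT-BATF libraries. The log2 difference was 1.19 (standard error 0.24, interval 0.67 to 1.70), with an adjusted p of 0.0115 from edgeR. With shared reads counted once it was 1.22 (0.65 to 1.79) with an adjusted p of 0.0333. It passed in each of the 10 fits that left out 1 deposited library (adjusted p from 0.00091 to 0.0329), and with shared reads counted once in 2 of 10, without replicate 1 labelled MIT-BATF (0.0316) or without replicate 4 labelled MIT-Empty (0.00323). In the other 8 the adjusted p ran from 0.0509, without replicate 3 labelled MIT-BATF, to 0.115, without replicate 2 labelled MIT-Empty.

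Lgals1, which encodes galectin-1, a dimer that cross-links glycoproteins of T cells, was at 1882, 1869, 1807, 2777 and 3347 CPM under MIT-BATF and at 2086, 2438, 2442, 2702 and 3002 CPM under MIT-Empty. Replicates 1 to 3 labelled MIT-BATF were the lowest of the 10 libraries and replicate 5 was the highest. The difference was -0.12 (interval -0.55 to 0.32, adjusted p = 0.823 from edgeR), and -0.29 (-1.09 to 0.52) with shared reads counted once.

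Anxa2, whose protein links membranes to actin, was at 361, 351, 432, 412 and 384 CPM under MIT-BATF and at 473, 454, 538, 396 and 580 CPM under MIT-Empty. Replicate 4 labelled MIT-Empty was the only MIT-Empty library inside the MIT-BATF range. The difference was -0.33 (standard error 0.14, interval -0.64 to -0.02, adjusted p = 0.234 from edgeR), and -0.33 (-0.76 to 0.10) with shared reads counted once. S100a10 per Anxa2, in TPM, was 9.20, 9.39, 7.68, 10.6 and 13.9 under MIT-BATF and 5.84, 7.47, 7.34, 8.40 and 8.64 under MIT-Empty. These ratios of the heterotetramer's 2 transcripts overlapped through replicate 3 labelled MIT-BATF. In CPM that library had a ratio of 2.95, inside the MIT-Empty range of 2.31 to 3.27, and with shared reads counted once it fell to 1.39, below all 5 MIT-Empty libraries (2.26 to 3.27). Replicate 2 labelled MIT-BATF then stood at 3.24, also inside that range, and the other 3 MIT-BATF libraries lay above it.

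Anxa1, whose protein is bound by S100A11 and, once secreted, by formyl peptide receptors, was the least abundant of the set. It was at 20.3, 29.0, 45.6, 42.2 and 52.4 CPM under MIT-BATF and at 13.1, 33.5, 16.3, 81.9 and 20.5 CPM under MIT-Empty. The highest library was replicate 4 labelled MIT-Empty, and the difference was 0.22 (interval -0.68 to 1.11, adjusted p = 0.846 from edgeR), and 0.34 (-0.72 to 1.4) with shared reads counted once. Vim was at 333, 323, 391, 313 and 369 CPM under MIT-BATF and at 206, 235, 201, 365 and 167 CPM under MIT-Empty. All 5 MIT-BATF libraries lay above 4 of the 5 MIT-Empty libraries, and replicate 4 labelled MIT-Empty lay among them. The difference of 0.56 (standard error 0.19, interval 0.15 to 0.96) did not pass (adjusted p = 0.122), and with shared reads counted once it was 0.60 (0.11 to 1.10, adjusted p = 0.301).

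**Figure D2:**
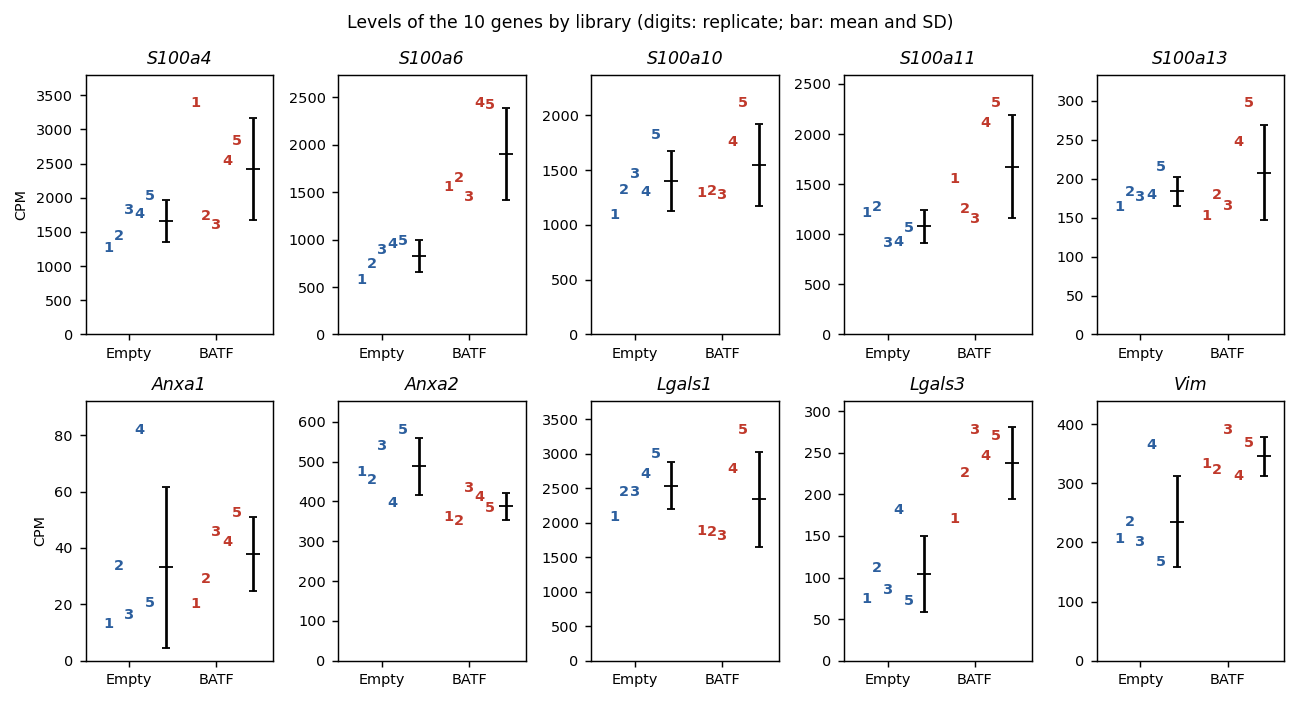
Level of each of the 10 genes in each library in CPM on linear axes from 0, with digits for the replicate and a bar for the mean and SD of 5 libraries. In the S100a6 panel the lowest MIT-BATF library, at 1455 CPM, lies above the highest MIT-Empty library, at 987 CPM, and replicate 4 labelled MIT-Empty is the highest MIT-Empty library for Anxa1, Lgals3 and Vim.

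Replicate 4 labelled MIT-Empty, the highest MIT-Empty library for Lgals3, Vim and Anxa1, was also the highest library for melanocyte RNA. The summed level of 8 melanocyte genes was 17.5 to 31.7 CPM in the libraries labelled MIT-BATF and 121, 603, 55.3, 1817 and 41.4 CPM in replicates 1 to 5 labelled MIT-Empty. All 7 of these genes that were tested fell in the libraries labelled MIT-BATF (Tyrp1, Dct, Mlana, Gpnmb, Tyr, Pmel and Slc45a2). Over all genes tested, 2.43% were called lower. With shared reads counted once 2 of 6 fell, Tyrp1 and Mlana, where 0.683% of all genes were called lower. Over the deposited counts limma voom called 0 of 7. Without replicates 2 and 4 labelled MIT-Empty 2 of 7 fell, where 132 of 12313 genes were called lower. The median over the melanocyte genes tested was then -1.40, against -4.03 with all libraries. The summed level of 13 macrophage genes was 27.7 to 87.5 CPM under MIT-BATF and 44.0 to 295 CPM under MIT-Empty, with 4 of 11 tested lower (Lyz2, Apoe, C1qc and Ms4a7). Of these 11, 1 passed with shared reads counted once (Apoe), 2 in limma voom over the deposited counts, and 0 of 12 tested without replicates 2 and 4 labelled MIT-Empty (6 at an unadjusted p under 0.05). Adgre1 was at 0.02 ± 0.04 CPM under MIT-BATF and 1.51 ± 1.57 CPM under MIT-Empty (SD, n = 5 each). Melanoma cells and macrophages are known to express Lgals3, Vim and Anxa1, and the part of this RNA in the levels of the 3 genes was not tested. Without replicates 2 and 4 labelled MIT-Empty the difference was 1.63 for Lgals3 (adjusted p = 0.00165 from edgeR), 0.86 for Vim (adjusted p = 0.0244) and 1.19 for Anxa1 (adjusted p = 0.0651), where 1.03% of 12313 genes were called higher. Without replicate 4 labelled MIT-Empty alone Vim passed at 0.77 (adjusted p = 0.0119 from edgeR). That library was picked out as the highest MIT-Empty library for Lgals3, Vim and Anxa1. Leaving it out had to raise their differences, so these fits are no test of where the RNA came from. S100a6 differed by 1.22 (adjusted p = 0.0386 from edgeR) without replicates 2 and 4 labelled MIT-Empty.

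**Figure D3:**
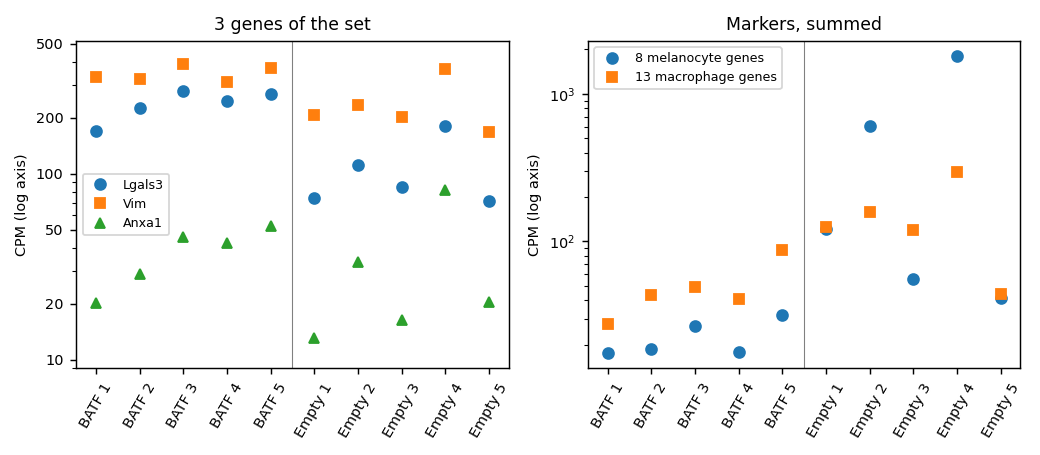
Levels of Lgals3, Vim and Anxa1 (left) and summed levels of 8 melanocyte and 13 macrophage genes (right) in each library in CPM, on log axes, libraries labelled MIT-BATF left of the line and MIT-Empty right of it. Replicate 4 labelled MIT-Empty holds the highest MIT-Empty value in all 5 series, with 1817 CPM of melanocyte genes.

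Of the other cell types, the summed level of dendritic cell genes had a median of 28.5 CPM under MIT-BATF and 48.4 CPM under MIT-Empty. That of stromal genes had medians of 9.43 and 18.1 CPM, and the sums of CD8 T cell genes overlapped. The 10 CD8 T cell genes, led by Trbc2, summed to 15657 to 21314 CPM under MIT-BATF and to 15460 to 24955 CPM under MIT-Empty, and edgeR called 0 of them (0 at an unadjusted p under 0.05, 0 in DESeq2), with Cd8a at 408 ± 61.0 and 391 ± 87.7 CPM (SD, n = 5 each). The 7 neutrophil genes, led by Cxcr2, summed to at most 7.93 CPM in any library, with S100a9 at 0 in all MIT-Empty libraries. Of the B cell genes, Cd79b rose over the deposited counts (adjusted p = 0.0175 from edgeR) and lost the call once shared reads were taken off (0.128), and Cd79a and Ms4a1 were each at a group mean of 0.0901 CPM or less. The 8 dendritic cell genes summed to 24.9 to 37.0 CPM under MIT-BATF and 38.1 to 119 CPM under MIT-Empty. Of these, H2-Aa was lower (group means of 11.5 and 44.2 CPM), Itgax was higher and Cd209a was at 0 in all libraries. With shared reads counted once H2-Aa passed (adjusted p = 0.0163 from edgeR) and Itgax did not (0.193). The 9 stromal genes, led by Pecam1, summed to 6.95 to 14.1 CPM and 16.4 to 109 CPM, with Dcn lower, a call that stood once shared reads were taken off (adjusted p = 0.0195 from edgeR).

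Per transcript length, S100a4 led the set in both groups, at 4017 ± 648 TPM (transcript level scaled to length and library total; SD, n = 5) under MIT-BATF and 3056 ± 802 TPM under MIT-Empty. It ranked 49 of 23938 genes with a mean above 0 under MIT-BATF and 70 of 24656 under MIT-Empty. Under MIT-Empty the order after S100a4 was Lgals1 (2745 ± 494 TPM), S100a11 (1806 ± 179), S100a10 (1588 ± 365) and S100a6 (1458 ± 390). S100a6 was thus at position 5 of 10 and differed from S100a10 by less than the larger SD, as did S100a4 from Lgals1 and S100a11 from S100a10. Under MIT-BATF S100a6 was next to S100a4, at 3105 ± 494 TPM, followed by S100a11 (2606 ± 384), Lgals1 (2286 ± 372) and S100a10 (1701 ± 279), and S100a11 and Lgals1 did not differ beyond the larger SD.

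The lower 5 genes kept apart from these in both groups. Under MIT-Empty they were Anxa2 (211 ± 38.6 TPM), S100a13 (207 ± 25.6), Lgals3 (81.1 ± 35.8), Vim (75.4 ± 24.7) and Anxa1 (10.8 ± 8.53). Under MIT-BATF they were S100a13 (226 ± 46.7 TPM), Lgals3 (188 ± 60.8), Anxa2 (173 ± 44.7), Vim (133 ± 46.1) and Anxa1 (14.1 ± 3.99), of which S100a13, Lgals3 and Anxa2 each differed from the next by less than the larger SD, as did Anxa2 from S100a13 and Lgals3 from Vim under MIT-Empty. Lgals3 stood below Anxa2 by more than the SD of either under MIT-Empty, and next to it under MIT-BATF. The 10 genes took 1.45% ± 0.107 of all TPM under MIT-BATF and 1.13% ± 0.201 under MIT-Empty (SD, n = 5 each).

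**Figure D4:**
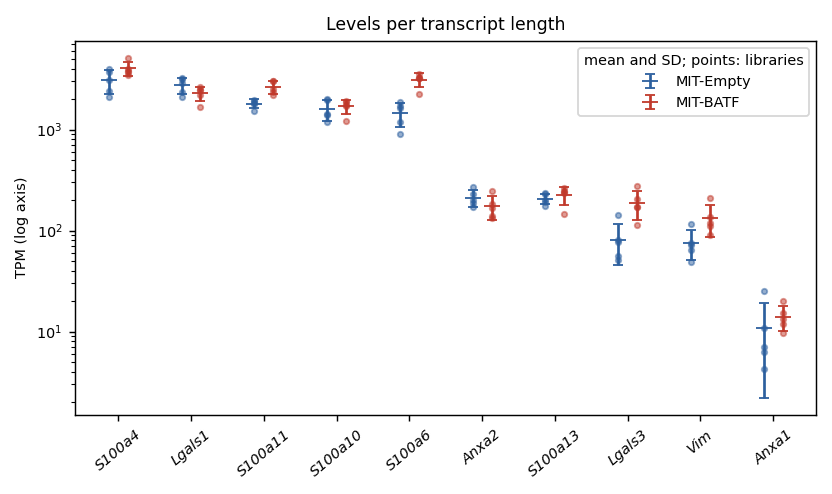
Level of each gene per transcript length in TPM on a log axis, ordered by the MIT-Empty mean, with points for libraries and bars for the mean and SD of 5 libraries. S100a6 is at position 5 in MIT-Empty at 1458 TPM and next to S100a4 in MIT-BATF at 3105 TPM.

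For 5 of the 10 genes 1 transcript held nearly all counts. S100a4, S100a10, S100a11, S100a13 and Anxa2 had at least 99.6% of their counts in 1 transcript in every library. S100a6 was split between S100a6-203 (464 nt) with 59.4% ± 1.09 under MIT-BATF and 57.1% ± 2.56 under MIT-Empty, and S100a6-201 (731 nt) with 40.6% ± 1.10 and 42.9% ± 2.57. Lgals3-203 (1072 nt) held 85.5% ± 1.42 and 86.6% ± 1.09 of the Lgals3 counts. Lgals1-202, annotated as a target of nonsense-mediated decay, held 13.9% ± 9.01 of Lgals1 counts under MIT-BATF (4.88% to 24.8%) and 27.2% ± 8.43 under MIT-Empty (17.3% to 38.2%), and the groups overlapped. Vim-206 (1777 nt, protein coding) held 0%, 4.99%, 19.5%, 5.10% and 11.2% of Vim counts under MIT-BATF and 0% in all 5 MIT-Empty libraries. Anxa1-202, a retained-intron transcript, held 26.8% of Anxa1 counts in replicate 1 labelled MIT-BATF and at most 1.75% elsewhere. These shares are Salmon's estimates between overlapping transcripts and were not tested.

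The part of a containing library that was not in the contained one differed with transcript length. In both MIT-BATF pairs the 5 S100 genes, Lgals1, Anxa1 and Vim lay below the median of their length class. Lgals3 and Anxa2 lay below it in replicate 2 less replicate 4 and above it in replicate 3 less replicate 5. For each gene, its share of the part not contained (the remainder) was divided by its share of the contained library, on the log2 scale. In replicate 3 less replicate 5 labelled MIT-BATF, the median was -0.49 over 541 genes whose leading transcript is under 600 nt and 1.31 over 6473 genes over 2000 nt. S100a11 (511 nt) stood at -1.96 there, with 6873 counts in the remainder and 42766 in the contained library, Lgals1 (800 nt) at -1.29, S100a13 (715 nt) at -1.09, S100a4 (498 nt) at -0.96 and S100a6 (464 nt) at -0.66. Vim (2193 nt), Lgals3 (1072 nt) and Anxa2 (1447 nt) stood at 1.22, 1.15 and 1.37. In replicate 2 less replicate 4 labelled MIT-BATF the same S100 genes ran from -1.20 (S100a11) to -0.29 (S100a10).

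In replicate 2 less replicate 4 labelled MIT-Empty the medians lay between -0.01 and 0.12 in the 4 length classes, and other genes were the lowest of the set. Anxa1 was at -2.82, with 154 counts in the remainder and 507 in the contained library, Lgals3 at -1.15 and Vim at -1.03, the 3 genes that were high in replicate 4. S100a6 and S100a4 stood at -0.54 and -0.42 in that pair, against a median of 0.12 for genes under 600 nt. S100a10, S100a13 and S100a11 stood at 0.06, 0.06 and 0.66. In replicate 3 less replicate 5 labelled MIT-Empty the medians also differed with length. They were -0.09 under 600 nt, -0.16 from 600 to 1000 nt, 0.17 from 1000 to 2000 nt and 0.69 over 2000 nt. The S100 genes stood between -0.24 and 0.15 there. Over all genes tested, those under 600 nt had a median log2 difference of -0.0036 between the labels, and 4 of 730 (0.548%) rose, S100a6 among them.

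**Figure D5:**
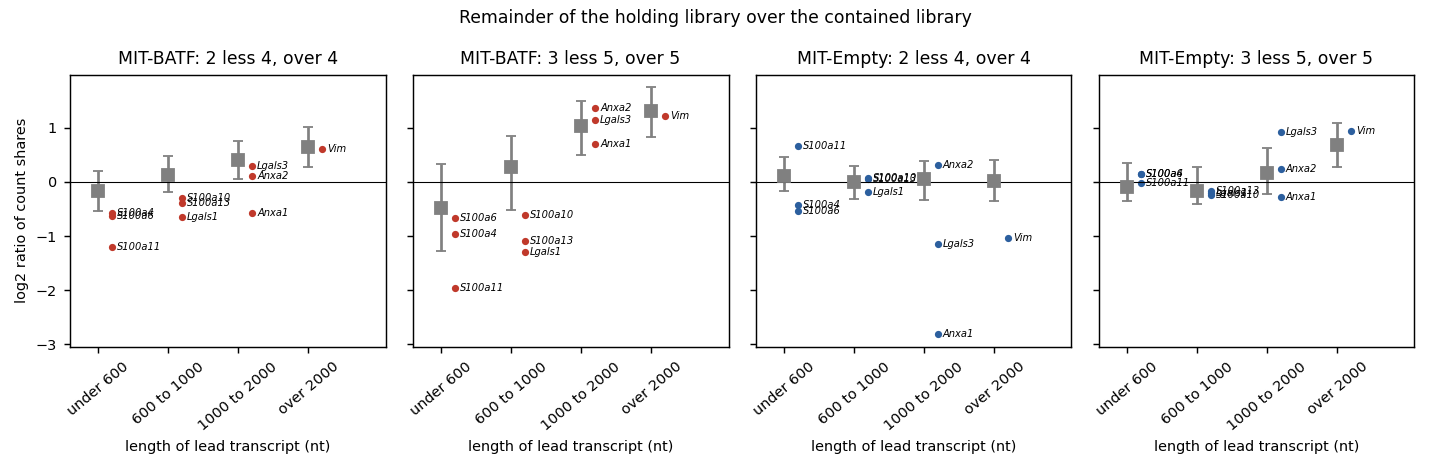
Log2 ratio of each gene's share in the remainder of a containing library to its share in the contained library, by length of the leading transcript, in the 4 nested pairs. Grey squares and bars are the median and quartiles over genes with at least 50 counts, coloured points are the genes of the set, and S100a11 lies lowest at -1.96 in replicate 3 less replicate 5 labelled MIT-BATF.

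Of 31 other genes of the S100, annexin and galectin families, 15 were tested and edgeR called 0. Of all genes tested, it called 4.58% in either direction. An unadjusted p under 0.05 from edgeR was found for 4 of the 15, and for 2133 of all 11781 genes tested. DESeq2 called 2 of the 15, with 7.78% of all genes called, and limma voom called 0. Anxa11, an annexin that tethers RNA granules, was at 9.40 ± 3.06 CPM under MIT-BATF and 4.42 ± 1.85 CPM under MIT-Empty (SD, n = 5 each; log2 difference 1.06, adjusted p = 0.0877 from edgeR). S100b, known from glia and melanocytes, was at 0.45 ± 0.44 and 3.48 ± 3.59 CPM (-2.75, adjusted p = 0.0661), with its highest value, 9.70 CPM, in replicate 4 labelled MIT-Empty. The most abundant relatives were the annexin Anxa6 (101 and 87.6 CPM), the galectin Lgals9 (73.1 and 62.4 CPM), Anxa5 (36.7 and 44.3 CPM), Anxa7 (29.2 and 31.0 CPM) and S100a1 (21.6 and 31.2 CPM), each below every S100 gene of the set. Lgals8 (10.8 and 9.14 CPM), Lgalsl (5.91 and 5.15 CPM) and S100a3 (2.57 and 2.05 CPM) were lower. S100a8 and S100a9, the S100 genes of neutrophils, were at 0.98 and 0.07 CPM under MIT-BATF and 0.08 and 0 CPM under MIT-Empty.

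Among 12 tested binding partners and membrane repair genes, Ahnak rose in the libraries labelled MIT-BATF, and it was the only one to pass in edgeR. Ahnak encodes a very large scaffold that binds the S100A10 and annexin A2 complex. It was at 84.3, 70.7, 61.5, 71.3 and 65.8 CPM under MIT-BATF and at 49.2, 49.2, 51.8, 39.6 and 37.1 CPM under MIT-Empty. The groups did not overlap, as in 3.28% of all genes tested in this direction, and they overlapped with shared reads counted once. The difference was 0.64 (standard error 0.14, adjusted p = 0.0204 from edgeR), and with shared reads counted once it was 0.50 with an adjusted p of 0.292. It passed in 9 of 10 fits that left out 1 deposited library, missing without replicate 4 labelled MIT-Empty (0.0512). Sdcbp, Sri and Pdcd6, the most abundant genes of this list, differed by -0.02, -0.09 and -0.04.

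Of 15 tested receptors and glycan-modifying genes that galectins, S100 proteins and annexins act through, edgeR called 0. An unadjusted p under 0.05 from edgeR was found for 3 of them, and for 2133 of all 11781 genes tested. DESeq2 called 2 of the 15, with 7.78% of all genes called, and limma voom called 1. Lgals3bp, a glycoprotein bound by galectin-3, was at 33.2 ± 8.72 and 19.0 ± 5.82 CPM (0.82, adjusted p = 0.0543), and Mgat2, an enzyme of N-glycan branching, at 37.4 ± 9.03 and 22.9 ± 5.41 CPM (0.70, adjusted p = 0.0587; SD, n = 5 each, MIT-BATF given before MIT-Empty). Ptprc, Cd69 and Itgb1, the most abundant, differed by 0.15, -0.13 and -0.24. Of 10 tested filament and lamin genes edgeR called 0 (1 at an unadjusted p under 0.05, 0 in DESeq2 and in limma voom), and Macf1, Sun1 and Sun2 differed by -0.13, 0.05 and 0.12.

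Of 18 genes of antigen-experienced T cells, 2 rose and none fell by edgeR, which called 2.16% of all genes tested higher and 2.43% lower. Emp1, a membrane protein of the epithelial membrane protein family, was at 22.7, 20.1, 17.9, 22.4 and 14.1 CPM under MIT-BATF and at 6.37, 5.28, 4.75, 9.05 and 3.65 CPM under MIT-Empty. Its difference of 1.77 (standard error 0.24, adjusted p = 0.00089 from edgeR) was 1.81 (adjusted p = 0.00413) with shared reads counted once. Itgb7, the integrin beta 7 chain, was at 30.0 ± 3.10 and 19.9 ± 2.93 CPM (SD, n = 5 each), and its difference of 0.59 passed over the deposited counts (adjusted p = 0.0335) and not with shared reads counted once (0.229). It passed in 3 of the 10 fits that left out 1 deposited library, those without replicate 1 or 5 labelled MIT-BATF or replicate 5 labelled MIT-Empty, and the highest adjusted p of the other 7 was 0.101, without replicate 2 labelled MIT-Empty. Plac8, Ly6c2 and Crip1, the most abundant of the list, differed by 0.85 (adjusted p = 0.0510), 0.55 (0.238) and 0.26 (0.581). The median over the 18 genes was 0.07. Of 22 genes of the actin cytoskeleton edgeR called 0, as did DESeq2 and limma voom. An unadjusted p under 0.05 from edgeR was found for 3 of the 22, and for 2133 of all 11781 genes tested. Tmsb4x, Actb and Tmsb10 differed by 0.12, -0.25 and 0.31.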

How the data were processed

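RNA of sorted tumor-infiltrating CD8+ T cells was measured in 10 libraries, 5 per label. The paper gives 5 mice per group. Whether the libraries with nested counts come from separate mice was not tested. The authors sequenced SMART-Seq2 libraries as paired 37 bp reads, ran the nf-core/rnaseq pipeline with mm10 and quantified transcripts with Salmon (version not given in the sources used). The deposited estimated counts and the deposited TPM values cover 112092 transcripts. Of these, 305 had no match in GENCODE vM21 and were left out (0.0617% to 0.089% of counts). Here the estimated counts were added up by gene and rounded to whole numbers, and TPM values were summed per gene and used for levels and 1 alternative test. The protocol is not stated to mark strand.

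Genes were tested by edgeR 4.0.16 (TMM, filterByExpr, condition as the only term), with Benjamini-Hochberg adjustment and a threshold of 0.05, in R 4.3.3. DESeq2 1.42.0 and limma 3.58.1 were alternatives. Tables and figures used Python 3.11.15, pandas 2.3.3, numpy 2.4.6, scipy 1.17.1 and matplotlib 3.10.9. A library was called contained where it exceeded the other in fewer than 1% of the genes that had 5 or more counts. Ratios of remainders used a pseudocount of 0.5 and genes with at least 50 counts. Counts of separate libraries were simulated for 11781 genes, 200 of them changed. They leave out the nesting of the real ones, and every gene had the same set spread between libraries, not one estimated from these data. In these simulated counts the edgeR test recovered 44.2% of 2-fold and 99% of 4-fold changes, with 6 false calls of 146. The rates need not hold for the real counts.

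The 10 genes, the related lists and the marker lists were chosen with earlier results of these data known, so no list is independent evidence. Named genes were the 10 genes, every gene of a related list that passed the test, the 3 most abundant of each such list, and for marker lists the most abundant gene and those that passed. Lgals3bp, Mgat2, Anxa11, S100a8, S100a9, Adgre1, Cd8a, Cd79a, Ms4a1 and Cd209a were added after their values were seen. For 1 marker list, the summed level and 1 of its genes are not reported here. Fits with DESeq2 or 1 library left out on counts with shared reads counted once, and limma on log2(TPM + 1), were added after seeing the data.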

Additional observations from a re-analysis of the deposited data

Results flagged for a closer look

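In 42 groups of 5 values, 5 had 1 library far from the other 4 by Dixon's criterion (a gap over 0.71 of the range, which chance alone passes in about 1 of 20 groups), and all 5 lay in replicate 1 labelled MIT-BATF. Mitochondrially encoded genes took 33.2% of the counts in that library and 11.5% to 15.1% in the other 4 libraries of its label. It had the highest S100a4 level, 5135 TPM against 3480 to 3940 TPM. It had the lowest levels of S100a6 (2265 TPM against 3205 to 3578 TPM), S100a10 (1223 TPM against 1721 to 1923 TPM) and S100a13 (145 TPM against 233 to 266 TPM). The part of the mitochondrial share in these levels was not tested. The other 4 libraries hold 2 nested pairs and are not 4 separate values.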

How the results depend on the processing

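Of the 10 genes, 2 passed over the deposited counts, 1 with shared reads counted once, 0 without the containing libraries (4 at an unadjusted p under 0.05) and 0 to 1 with shared reads counted once and 1 library left out; 2 to 3 passed under the other settings. S100a6 and Lgals3 kept a positive difference under every alternative run, from 0.87 to 1.35 and from 1.08 to 1.63. Calls among all genes were 540 over the deposited counts, 916 in DESeq2, 903 with no filter on low counts, 140 with shared reads counted once, 96 without the contained libraries, 15 without the containing libraries, 259 without replicates 2 and 4 labelled MIT-Empty, and 287 to 772 with 1 library left out (287 without replicate 2 labelled MIT-Empty and 321 without replicate 2 labelled MIT-BATF). Among related families the calls were 2 in DESeq2, 4 with no filter and 0 to 1 with 1 library left out. Among partner, receptor and filament genes they were 3 in DESeq2, 2 in limma voom, 3 with no filter, 3 with the replicate block, 0 with shared reads counted once, 0 without the containing libraries and 1 to 2 with 1 library left out. Among genes of antigen-experienced cells they were 1 with shared reads counted once, 1 without the contained libraries, 0 without the containing libraries, 1 without replicates 2 and 4 labelled MIT-Empty and 1 to 2 with 1 library left out. By share of counts in place of TPM the 10 genes took 1.10% under MIT-BATF and 0.856% under MIT-Empty.

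Direction turned for S100a10 with shared reads counted once and 1 library left out (-0.079 and -0.185 without replicates 4 and 5 labelled MIT-BATF, -0.037 and -0.032 without replicates 1 and 3 labelled MIT-Empty). It turned for S100a13 in the same 4 settings (-0.127, -0.246, -0.012 and -0.063) and without the contained libraries (-0.047), and for Lgals1 without the containing libraries (0.040). None of these 3 genes passed under any setting. The cause was not tested.

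Deviations of libraries with the same replicate number had correlations of 0.129, 0, 0.222, -0.046 and 0.022 for replicates 1 to 5. With shared reads counted once they were 0.124, -0.097, 0.338, 0.002 and 0.064. The value of replicate 3 was the highest of all those between the groups in both settings. With 5 libraries a group these values cannot decide whether the number pairs libraries. With the replicate block 2 of the 10 genes passed and 474 genes of all tested. Fits without the containing libraries rest on 3 libraries a group. Anxa1 had the fewest counts of the set, at 107 to 1966 per library.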
